A study of Mus musculus with 9 samples.

Results

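The 10 genes described here carry DNA damage checkpoint signalling, the relay from damaged or stalled DNA to the arrest of the cell cycle: *Atm*, *Atr*, *Rad17*, *Topbp1*, *Clspn*, *H2ax*, *Mdc1*, *Trp53bp1*, *Chek1* and *Chek2*. They were taken by name from the expression table, and all 10 were found among its 15184 genes. The labels divide the 9 libraries of mouse embryonic fibroblasts (MEFs) into 3 of genotype Empty vector and 6 of genotype Hnrnpk_SAM, and the latter are titled SAM1 or SAM2 with 3 libraries each. Per the study's methods, wild-type MEFs were transduced with lentiviral plasmids of the synergistic activation mediator (SAM), a catalytically dead Cas9 system that recruits transcriptional activators to the promoter a guide RNA addresses, with guides against *Hnrnpk*, and were then kept under antibiotic selection. The control, which the labels call Empty vector, is described in the methods as the SAM plasmid with a nontargeting guide, so every group shares a plasmid of this system and the selection. The methods print the same sequence for the nontargeting guide as for a guide against *Hnrnpk*. Which guide the control carried is therefore uncertain. Nothing in the labels assigns SAM1 or SAM2 to a guide or says whether the 3 libraries of a title are separate cultures, so p-values measure the spread between these libraries, which may be technical. The test of 6 against 3 libraries, called pooled below, does not model the titles. Its spread therefore also holds the difference between SAM1 and SAM2. Tests by title come from a fit of 3 groups.

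In this relay, ATM is activated mainly at double-strand breaks, and ATR at single-stranded DNA coated by replication protein A. RAD17 loads a ring-shaped clamp beside that DNA, TOPBP1 joins the clamp and activates ATR, and claspin presents the kinase CHK1 to ATR, while ATM activates CHK2. Around breaks the histone variant H2AX is phosphorylated, MDC1 binds that mark, and 53BP1 gathers downstream of MDC1. Much of this acts through phosphorylation, which an RNA measurement does not see.

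Of these genes, 6 were higher in the libraries labelled Hnrnpk_SAM than in empty vector libraries and 1 was lower (limma on log2 normalized counts, adjusted p below 0.05). *Clspn*, *Chek2*, *Chek1*, *Mdc1*, *H2ax* and *Trp53bp1* were higher, *Rad17* was lower, and *Atm*, *Atr* and *Topbp1* did not pass the test. Over the whole table the same test called 26.8% of genes higher and 27.0% lower. The same 6 genes were those in which all 6 libraries lay above all 3 empty vector libraries, an arrangement found in 25.9% of all genes, and *Rad17* had all 6 below all 3, as had 27.2% of all genes. The median log2 difference of the 10 genes was 0.27 beside 0.01 over all genes. In bulk RNA, a different mix of cells and a different amount of RNA per cell cannot be told apart.

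A few facts of the series bear on these values. Reads on listed genes ran from 41759636 to 49026626 per library, and each checkpoint gene had between 455 (*Chek2* in Empty 3) and 10223 reads (*Topbp1* in SAM2 3). *Hnrnpk*, the gene the guides were made to activate, stood at 25058, 26098 and 26164 normalized counts in Empty 1 to 3, 24102, 24045 and 23619 in the libraries labelled SAM1, and 26608, 26859 and 26221 in those labelled SAM2. It was thus lower in the libraries labelled SAM1 (log2 difference −0.11, adjusted p = 0.00252), did not pass the test in those labelled SAM2 (0.04, adjusted p = 0.159), and SAM1 and SAM2 are used below only as the titles on the labels. All 12 fibroblast markers were present, with summed levels of 1054270 to 1148590 normalized counts in empty vector, 903273 to 962177 in SAM1 and 1186230 to 1225230 in SAM2 libraries. Of the epithelial markers 3 of 7 were listed, without *Epcam*, with sums of 388 to 429, 3733 to 3884 and 243 to 275 in the same order, and of the endothelial ones 4 of 5, with 301 to 357, 4613 to 4988 and 638 to 689. Single genes made up most of these 2 kinds of sum over the 9 libraries. *Cldn4* had a mean of 1423 normalized counts beside 17.3 for *Krt8*, and *Kdr* had 1813 beside 18.1 for *Pecam1*. Leukocyte markers had 2 of 6 listed, without *Ptprc*, with sums of 529 to 639, 753 to 800 and 652 to 689, muscle markers had 1 of 4 (*Des*, with 44.4 to 83.0, 90.8 to 111 and 223 to 245 in the same order) and neural markers 2 of 4 (299 to 335, 898 to 937 and 603 to 638). Their part in the results below was not tested.

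The genes lie on 6 chromosomes, and 5 of them on chromosome 9 (GRCm39, GENCODE vM39). *Chek1* spans chr9:36614487-36638361 on the minus strand, *H2ax* chr9:44245991-44247374 on the plus strand, *Atm* chr9:53348097-53448236 on the minus strand, *Atr* chr9:95739650-95835263 on the plus strand and *Topbp1* chr9:103182356-103227631 on the plus strand. *Trp53bp1* spans chr2:121023762-121120840 (minus), *Clspn* chr4:126450728-126489576 (plus), *Chek2* chr5:110987826-111022011 (plus), *Rad17* chr13:100753667-100788222 (minus) and *Mdc1* chr17:36152384-36170563 (plus). The strand setting of the authors' counting is not given in the sources used here, so reads of overlapping genes on opposite strands may be mixed. Exons of *Trp53bp1* share 2571 bases with *Tubgcp4*, and those of *Rad17* share 444 bases with *Ak6* and 136 with *Taf9*. Those of *Atr* share 518 bases with Gm16794 and those of *Mdc1* share 60 bases with Ppp1r18os. All of these are listed and on the other strand, so the values of these 4 genes are uncertain to that extent. Unlisted genes on the other strand share 199 and 141 bases with *H2ax*, 387 with *Chek1* and 726 with *Atr*. Unlisted Gm24004 shares 178 bases with *Atr* on its own strand. The values of *H2ax* and *Chek1* may thus be affected too.

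Promoter sequences are shown because E2F factors are the textbook regulators of genes that rise on entry into S phase, *Clspn* and *Chek1* among them. Promoters from RefSeq (GRCm38.p6, 250 bases before to 50 after the annotated start) were matched for 9 of the 10 genes, with none for *H2ax*. They were searched on both strands for 4 words of the E2F motif, TTTCCCGC, TTTGGCGC, TTTCGCGC and TTTGCCGC, and 4 of the 9 held one. Such a word was held by 2.28% of all 32544 RefSeq promoters and by 3.71% of the 14217 promoters of listed genes. These 4 promoters follow, 5′ to 3′ on the strand of the gene, with the E2F word in capitals.
Clspn: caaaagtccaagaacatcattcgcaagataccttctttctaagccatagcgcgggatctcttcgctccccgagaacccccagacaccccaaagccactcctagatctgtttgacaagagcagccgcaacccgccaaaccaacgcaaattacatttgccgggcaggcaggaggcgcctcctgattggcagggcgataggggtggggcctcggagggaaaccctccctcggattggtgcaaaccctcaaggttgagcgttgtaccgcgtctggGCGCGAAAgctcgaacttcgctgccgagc
Chek2: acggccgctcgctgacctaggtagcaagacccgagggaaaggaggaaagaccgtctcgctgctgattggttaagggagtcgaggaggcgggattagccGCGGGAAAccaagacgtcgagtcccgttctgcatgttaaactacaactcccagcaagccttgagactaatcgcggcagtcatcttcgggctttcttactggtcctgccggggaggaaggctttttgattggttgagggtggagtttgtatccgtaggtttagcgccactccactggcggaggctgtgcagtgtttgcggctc
Mdc1: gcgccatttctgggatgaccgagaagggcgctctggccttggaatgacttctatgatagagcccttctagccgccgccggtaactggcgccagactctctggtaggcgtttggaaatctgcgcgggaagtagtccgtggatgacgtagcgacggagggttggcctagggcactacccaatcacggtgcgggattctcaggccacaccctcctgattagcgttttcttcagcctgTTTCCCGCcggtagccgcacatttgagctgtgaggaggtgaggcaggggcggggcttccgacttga
Topbp1: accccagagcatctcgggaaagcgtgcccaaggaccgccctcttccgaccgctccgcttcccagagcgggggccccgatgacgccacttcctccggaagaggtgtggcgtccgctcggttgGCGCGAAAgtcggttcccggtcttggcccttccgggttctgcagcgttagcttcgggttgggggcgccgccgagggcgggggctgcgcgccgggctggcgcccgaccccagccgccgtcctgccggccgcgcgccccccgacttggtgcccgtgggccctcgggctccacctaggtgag

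The *Clspn* window is chr4:126556730-126557029 of GRCm38.p6 on the plus strand, and its word (TTTCGCGC, read on the opposite strand) begins 21 bases after the start. In *Chek2* (chr5:110839733-110840032, plus) the word TTTCCCGC lies on the opposite strand, 152 bases before the start. *Mdc1* (chr17:35841248-35841547, plus) has TTTCCCGC on its own strand 16 bases before the start, and *Topbp1* (chr9:103305077-103305376, plus) has TTTCGCGC on the opposite strand 129 bases before it. The promoters of *Atm*, *Atr*, *Rad17*, *Trp53bp1* and *Chek1* held none of the 4 words in this window. Other forms of the E2F motif were not searched, so a promoter without these words may still hold an E2F site. The CCAAT box, searched on both strands, occurred 69 and 21 bases before the start of *Clspn*, 186 and 26 bases before that of *Chek2*, 75 before that of *Mdc1* and 165 before that of *Atm*, beside 37.4% of all promoters. The matches are a description of letters and not of binding.

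The effector kinases *Chek1* and *Chek2*, which phosphorylate CDC25 phosphatases and p53, were both higher, by different amounts. *Chek1* stood at 848, 889 and 943 normalized counts in empty vector, 1270, 1298 and 1284 in those labelled SAM1, and 1257, 1273 and 1276 in those labelled SAM2. The 6 libraries labelled Hnrnpk_SAM lay within 41 counts of each other and all above the empty vector libraries. The mean was 1.43-fold that of empty vector, with a log2 difference of 0.52 ± 0.04 (SE, adjusted p = 8.95e-06). SAM2 and SAM1 differed by −0.02 (95% confidence interval −0.11 to 0.08, adjusted p = 0.748). *Chek2* had 521, 498 and 532 normalized counts in empty vector, 709, 734 and 671 in SAM1 and 967, 942 and 1022 in SAM2 libraries. The 3 sets did not overlap. How many of all genes have 3 separate sets was not counted, but SAM2 lay above SAM1 without overlap in 5281 of 15184 genes and below it in 5076. The log2 difference from empty vector was 0.45 ± 0.05 in SAM1 (adjusted p = 4.00e-06) and 0.92 ± 0.05 in SAM2 (adjusted p = 3.75e-09), and SAM2 exceeded SAM1 by 0.47 ± 0.05 (adjusted p = 4.97e-06). Pooled over both titles, *Chek2* was higher by 0.68 ± 0.14 (adjusted p = 0.00289).

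The balance of the effector transcripts was shifted towards *Chek2* in SAM2, while SAM1 overlapped empty vector. The ratio of *Chek1* to *Chek2* normalized counts, which is not adjusted for transcript length, was 1.73 ± 0.0871 in empty vector (SD, n = 3), 1.82 ± 0.0784 in SAM1 and 1.30 ± 0.0513 in SAM2 libraries. It was 1.63, 1.78 and 1.77 in the single empty vector libraries and 1.30, 1.35 and 1.25 in those labelled SAM2, without overlap, while those labelled SAM1 (1.79, 1.77 and 1.91) overlapped empty vector.

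**Figure D1:**
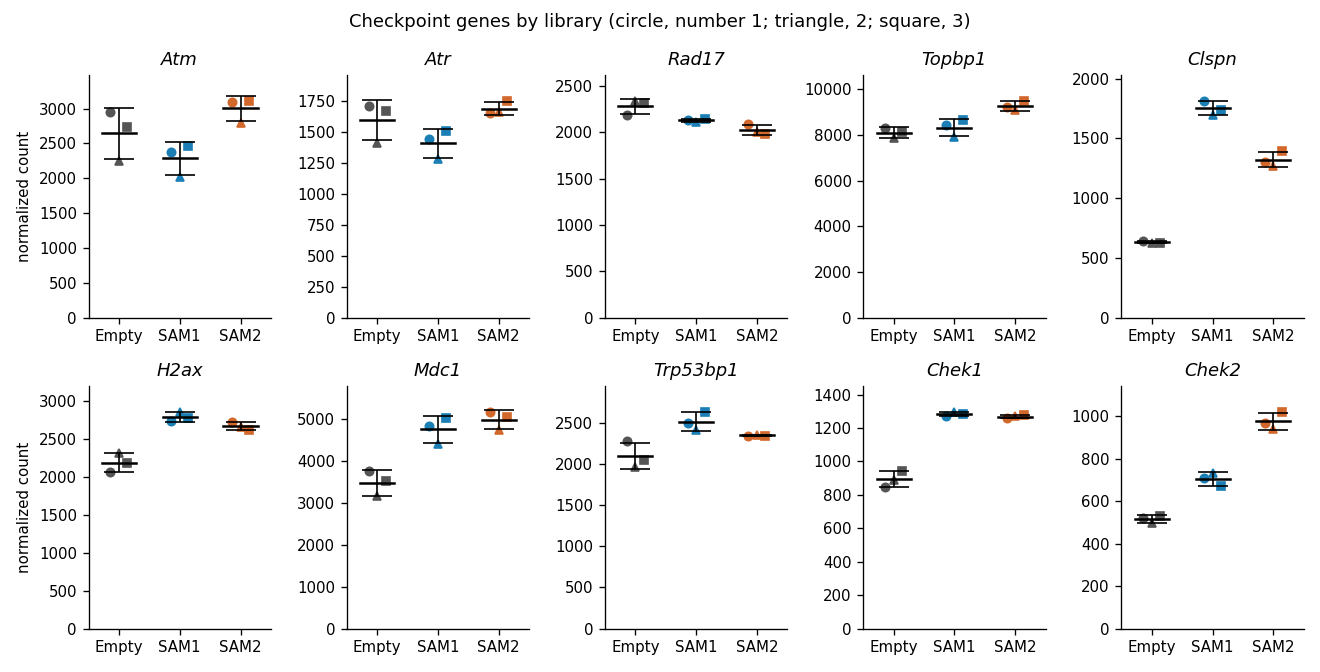
Normalized counts (vertical axes, from 0) of the 10 checkpoint genes in every library, by group. Each point is 1 library, with its number given by the symbol, and bars show the mean ± SD of 3 libraries. The 3 groups do not overlap for *Clspn*, *Chek2*, *H2ax*, *Trp53bp1* and *Rad17*, SAM1 and SAM2 overlap above empty vector for *Chek1* and *Mdc1*, and number 2 libraries (triangles) are the lowest of their group for *Atm*, *Topbp1*, *Clspn* and *Mdc1*. Over all 15184 genes, SAM2 lay above SAM1 without overlap in 5281 and below it in 5076. The share of all genes with 3 separate groups was not counted.

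Among the genes that load the clamp and activate ATR, *Clspn* was higher, *Rad17* was slightly lower and *Topbp1* passed in SAM2 and not in SAM1 or pooled. *Clspn* encodes claspin, the adaptor that brings CHK1 to ATR and travels with the replication fork. It stood at 646, 624 and 629 normalized counts in empty vector, 1815, 1698 and 1741 in those labelled SAM1, and 1305, 1270 and 1394 in those labelled SAM2. The lowest library labelled Hnrnpk_SAM was 1.97-fold the highest empty vector library, and SAM1 lay above SAM2 without overlap. The log2 difference was 1.47 ± 0.04 in SAM1 (2.77-fold, adjusted p = 5.85e-12) and 1.06 ± 0.04 in SAM2 (2.09-fold, adjusted p = 2.15e-10). SAM2 was below SAM1 by −0.40 ± 0.04 (adjusted p = 5.23e-06), the opposite order to *Chek2*. The ratio of *Clspn* to *Chek1* normalized counts was 0.710 ± 0.0477 in empty vector, 1.36 ± 0.0605 in SAM1 and 1.04 ± 0.0474 in SAM2 libraries (SD, n = 3 each), and the single libraries of the 3 sets did not overlap (0.667 to 0.761, 1.31 to 1.43 and 0.998 to 1.09). *Clspn* is also one of the 43 S phase genes of the Seurat cell cycle list. Of that list 33 were called higher and 2 lower in the pooled comparison (median log2 difference 0.59), and of the 54 G2/M phase genes 51 were higher and 2 lower (median 1.18). Between titles, 25 of the S phase genes were lower in SAM2 than in SAM1 and 6 higher, and of the G2/M phase genes 26 were lower and 8 higher, beside 29.2% of all genes lower and 31.1% higher. The part of cell cycle phase in the values of the checkpoint genes was not tested.

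*Topbp1* encodes the scaffold whose activation domain switches on ATR. It had 8318, 7841 and 8106 normalized counts in empty vector, 8417, 7910 and 8631 in SAM1 and 9205, 9071 and 9486 in SAM2 libraries. SAM2 lay above both other sets, and SAM1 overlapped empty vector. The log2 difference was 0.19 ± 0.04 in SAM2 (adjusted p = 0.000319) and 0.04 ± 0.04 in SAM1 (95% confidence interval −0.04 to 0.12, adjusted p = 0.333), and SAM2 exceeded SAM1 by 0.15 ± 0.04 (adjusted p = 0.00249). Pooled, the difference of 0.12 ± 0.06 did not pass the test (adjusted p = 0.117), though it did without SAM1 2 (0.15, adjusted p = 0.0282) and under quantile normalization (0.21, adjusted p = 0.00329). Quantile normalization also called the SAM1 difference (0.16, adjusted p = 0.000613). In the fit of 3 groups, the mean of SAM1 and SAM2 differed from empty vector by the same 0.12 and passed (adjusted p = 0.00424).

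*Rad17* encodes the clamp loader. It had 2186, 2340 and 2312 normalized counts in empty vector, 2137, 2107 and 2143 in SAM1 and 2088, 2009 and 1984 in SAM2 libraries. All 6 libraries labelled Hnrnpk_SAM lay below the 3 empty vector libraries, with a gap of 43 counts between Empty 1 and SAM1 3. The log2 difference was −0.13 ± 0.04 pooled (0.912-fold, adjusted p = 0.0227), −0.10 ± 0.04 in SAM1 (adjusted p = 0.0268) and −0.17 ± 0.04 in SAM2 (adjusted p = 0.000985). The pooled call was lost without Empty 2 (adjusted p = 0.0918) or Empty 3 (adjusted p = 0.0867), and the SAM1 call without Empty 2 (adjusted p = 0.0856), Empty 3 (0.0822), SAM1 1 (0.0544) or SAM1 2 (0.0579). The call in SAM2 was kept without any single library (adjusted p of 0.000300 to 0.00704).

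The genes of the chromatin mark and of the proteins that gather around it, *H2ax*, *Mdc1* and *Trp53bp1*, were higher in both titles. *H2ax* encodes the histone variant whose phosphorylated form marks breaks; its RNA exists with and without a polyA tail, and these libraries hold the polyA+ form. It had 2065, 2310 and 2185 normalized counts in empty vector, 2739, 2858 and 2768 in SAM1 and 2719, 2662 and 2616 in SAM2 libraries. The pooled log2 difference was 0.32 ± 0.05 (1.25-fold, adjusted p = 0.000273), with 0.35 in SAM1 (adjusted p = 3.93e-06) and 0.29 in SAM2 (adjusted p = 3.08e-05). All 6 libraries lay above all 3, and the SAM2 libraries lay below all SAM1 libraries by a small margin. SAM2 and SAM1 differed by −0.06 (95% confidence interval −0.15 to 0.02, adjusted p = 0.188), a difference that passed under quantile normalization (−0.13, adjusted p = 0.0174).

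*Mdc1* encodes the mediator that binds phosphorylated H2AX. It had 3752, 3152 and 3514 normalized counts in empty vector, 4832, 4407 and 5035 in SAM1 and 5177, 4733 and 5046 in SAM2 libraries. Both titles lay above all empty vector libraries, while SAM1 and SAM2 overlapped each other. Its log2 difference was 0.49 ± 0.07 pooled (1.40-fold, adjusted p = 0.000192), 0.46 in SAM1 (adjusted p = 1.80e-05) and 0.52 in SAM2 (adjusted p = 5.41e-06), with SAM2 and SAM1 differing by 0.07 (95% confidence interval −0.07 to 0.20, adjusted p = 0.359). *Trp53bp1* encodes 53BP1, which shields break ends from resection. It had 2276, 1970 and 2048 normalized counts in empty vector, 2496, 2418 and 2638 in SAM1 and 2343, 2354 and 2347 in SAM2 libraries. SAM2 lay only 67 counts or more above Empty 1, the highest empty vector library. The log2 difference was 0.21 ± 0.06 pooled (1.16-fold, adjusted p = 0.0108), 0.26 ± 0.05 in SAM1 (adjusted p = 0.000315) and 0.17 ± 0.05 in SAM2 (adjusted p = 0.00955). Without Empty 2 the pooled difference was 0.17 and missed the threshold (adjusted p = 0.0571).

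**Figure D2:**
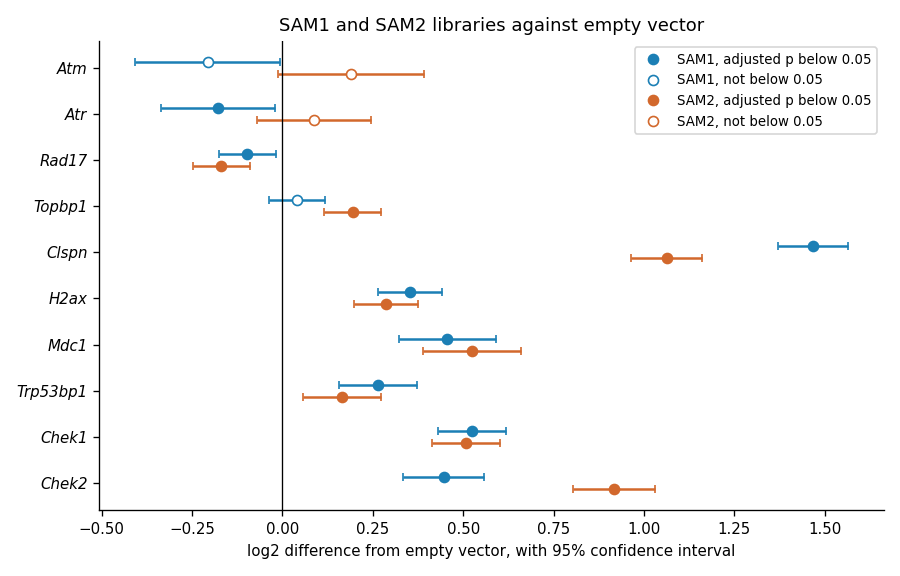
Log2 difference of each checkpoint gene from the empty vector libraries (horizontal axis) in the libraries labelled SAM1 and SAM2, with 95% confidence intervals of the limma fit over 9 libraries. Filled points passed the test. Both comparisons use the same 3 empty vector libraries. *Atm* and *Atr* lie on opposite sides of 0 in SAM1 and SAM2.

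The apical kinases gave no pooled difference, and SAM1 and SAM2 lay on either side of empty vector. *Atm* had 2957, 2242 and 2737 normalized counts in empty vector, 2376, 2013 and 2465 in SAM1 and 3094, 2798 and 3111 in SAM2 libraries. SAM2 lay above SAM1 without overlap, and both overlapped the empty vector libraries, which ranged more widely than either. The pooled log2 difference was −0.01 ± 0.15 (adjusted p = 0.965), with a 95% confidence interval from −0.34 to 0.32. SAM1 differed from empty vector by −0.21 ± 0.09 (adjusted p = 0.0590), and SAM2 by 0.19 ± 0.09 (adjusted p = 0.0842). Count tests on the recovered reads called the SAM1 difference (edgeR adjusted p = 0.0484, DESeq2 adjusted p = 0.0335). With the library number added to the limma fit, both differences passed (SAM1 adjusted p = 0.000242, SAM2 adjusted p = 0.000577). Leaving out 1 library also moved these calls: SAM1 passed without Empty 2 (−0.32, adjusted p = 0.00170) or SAM1 3 (−0.26, adjusted p = 0.0322), and SAM2 passed without Empty 1 (0.28, adjusted p = 0.0161) or SAM1 2 (0.19, adjusted p = 0.0401). The difference between titles was 0.40 ± 0.09 (1.31-fold, adjusted p = 0.00241) and stayed called without any single library (0.31 to 0.45).

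*Atr* had 1709, 1405 and 1664 normalized counts in empty vector, 1443, 1276 and 1501 in SAM1 and 1646, 1662 and 1748 in SAM2 libraries. The picture was that of *Atm*, with SAM2 above SAM1 and empty vector overlapping both. Pooled, the log2 difference was −0.05 ± 0.10 (adjusted p = 0.733). *Atr* was lower in SAM1 by −0.18 ± 0.07 (adjusted p = 0.0413), but that call was lost in 7 of the 9 fits that left out 1 library: Empty 1 (adjusted p = 0.156), Empty 3 (0.149), SAM1 1 (0.0541), SAM1 2 (0.166), SAM2 1 (0.0549), SAM2 2 (0.0545) or SAM2 3 (0.0519). SAM2 differed from empty vector by 0.09 ± 0.07 (adjusted p = 0.307), and from SAM1 by 0.26 ± 0.07 (1.20-fold, adjusted p = 0.00703). The values of *Atm* and *Atr* moved together over the 9 libraries (Pearson r = 0.968 on log2 values, a description over libraries of 3 shared groups). The part of transcript length in this was not tested.

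Counted by title, 6 of the 10 genes were called higher and 2 lower in SAM1, where 37.3% of all genes were higher and 36.9% lower. In SAM2 7 were higher and 1 lower, beside 35.2% and 35.3%. Between the titles 4 genes were higher in SAM2 (*Atm*, *Atr*, *Topbp1* and *Chek2*) and 1 was lower (*Clspn*), beside 31.1% and 29.2% of all genes. SAM2 lay above SAM1 without overlap in 4 of the 10 genes and below it in 4, beside 5281 and 5076 of all 15184 genes. SAM1 and SAM2 are set against the same empty vector libraries, so the agreement of their directions carries the error of those libraries with it.

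The number 2 libraries stood apart in genes with long transcripts, in all 3 groups. Number 2 was the lowest library of every group for 4 of the 10 genes (*Atm*, *Topbp1*, *Clspn* and *Mdc1*), beside 12.9% of all genes. Over 10862 protein coding genes cut into 10 bins by the length of the longest transcript, that share rose from 0.644% in the shortest bin to 52.4% in the longest. *Atm*, *Atr*, *Trp53bp1* and *Chek1* fall in the longest bin, *Clspn* and *Mdc1* in the next, and *H2ax* in the shortest. The deviation of number 2 from the mean of numbers 1 and 3 in *Atm* was −0.34 in empty vector, −0.27 in SAM1 and −0.15 in SAM2 on the log2 scale, beside medians of −0.12, −0.14 and −0.04 in the longest bin. *Atr* deviated by −0.26, −0.21 and −0.03. *Chek1* deviated by only −0.01, 0.02 and 0.01, and *H2ax* by 0.12, 0.05 and −0.00251. The bin of *Chek1* rests on the longest of its 15 annotated transcripts (9088 bases, beside 9640 for *Atr*). Which transcripts these cells express was not tested, so *Chek1* RNA may be shorter than its bin. The SD within groups on the log2 scale was 0.157 for *Atm*, 0.116 for *Atr* and 0.100 for *Mdc1*, above the median of 0.0740 over all genes. It was below that median for *Trp53bp1* (0.0723) and *Chek1* (0.0455) of the longest bin. The same held for *Clspn* (0.0507), *Topbp1* (0.0486), *Chek2* (0.0580), *H2ax* (0.0526) and *Rad17* (0.0382), so the SD did not follow the bins throughout.

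Length also moved with the difference between titles. The median log2 difference of SAM2 from SAM1 was −0.04 in the shortest bin and 0.14 in the longest, where *Atm* had 0.40 and *Atr* 0.26 but *Chek1* had −0.02 and *Trp53bp1* had −0.10. With the number 2 libraries of all groups left out, a check added after these values had been seen, *Atm* was lower in SAM1 (−0.23, adjusted p = 0.000119) and higher in SAM2 (0.13, adjusted p = 0.0131). In the same fit the pooled calls of *Rad17* (adjusted p = 0.168) and *Trp53bp1* (adjusted p = 0.0931) were lost, as was the SAM1 call of *Rad17* (adjusted p = 0.133). The part of transcript length in these values was not tested.

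**Figure D3:**
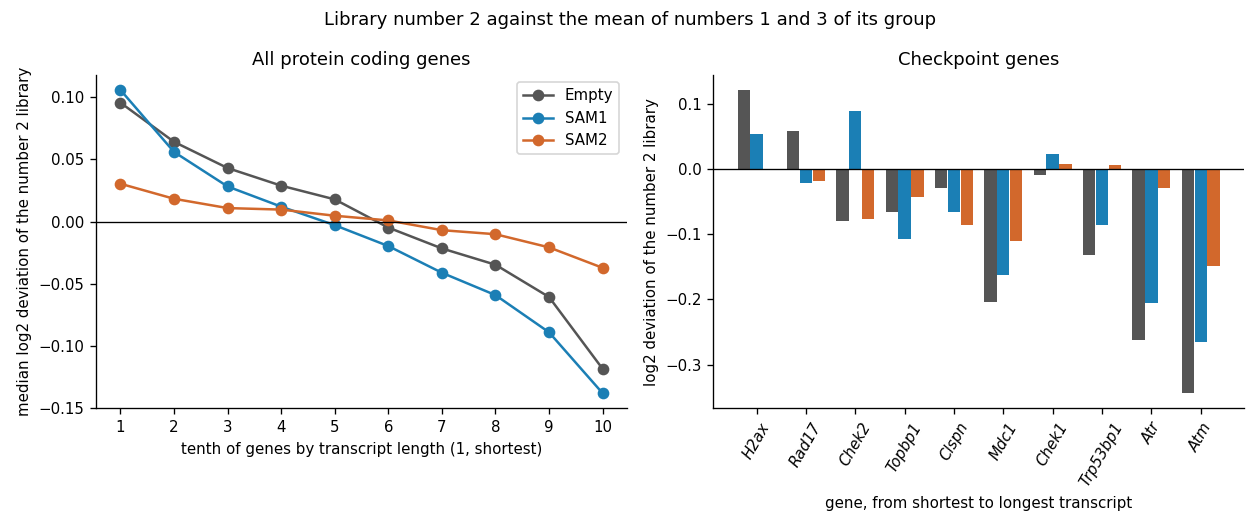
Left, median log2 deviation of library number 2 from the mean of numbers 1 and 3 of its group (vertical axis) over protein coding genes in 10 bins of transcript length (horizontal axis); 1 line per group. Right, the same deviation for each checkpoint gene, ordered by the length of its longest annotated transcript. The deviation falls with length in all 3 groups, from 0.10 to −0.12 in empty vector, and *Atm* has the lowest bars while *Chek1* is near 0.

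The position of the genes was compared with what lies around them, since the study also examined the karyotype of these cells. Over chromosome 9, with 846 listed genes, the pooled median log2 difference was −0.14, and the medians of listed genes within 2 Mb of the 5 checkpoint genes there were all below 0. *Chek1* (0.52) stood among 29 neighbours with a median of −0.07, of which 7 were above it, *H2ax* (0.32) among 57 with −0.08, of which 10 were above it, and *Topbp1* (0.12) among 19 with −0.30, of which 3 were above it. *Atm* (−0.01) had 27 neighbours with a median of −0.13 and *Atr* (−0.05) 21 with −0.20. *Clspn* (1.26) had 45 neighbours with a median of −0.11, only 1 of them above it, and *Chek2* (0.68) had 38 with −0.09, of which 3 were above it.

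On the other chromosomes the neighbours had medians of either sign. *Rad17* (−0.13) had 27 neighbours with a median of −0.14, of which 12 were above it. *Trp53bp1* (0.21) lay below the median of its 67 neighbours, 0.34, and 43 of them were above it. *Mdc1* (0.49) lay among 109 neighbours with a median of 0.19, of which 25 were above it. Between titles the neighbours of *Atr* had a median of −0.19 while *Atr* itself had 0.26, and those of *Chek2* had 0.13 beside 0.47. The part of copy number in these values was not tested.

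**Figure D4:**
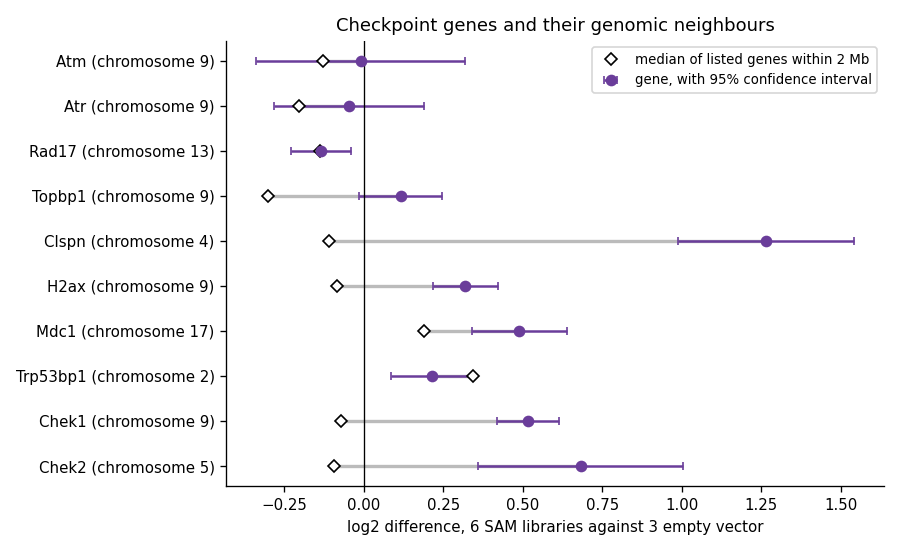
Log2 difference of each checkpoint gene between the 6 libraries labelled Hnrnpk_SAM and the 3 empty vector libraries (filled points, with 95% confidence intervals), beside the median of the other listed genes within 2 Mb (open diamonds). *Clspn*, *Chek1*, *Chek2* and *H2ax* lie above 0 with neighbour medians below 0, and *Rad17* (−0.13) lies beside its neighbour median (−0.14).

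Per kilobase of exon, *H2ax* had the highest level and *Atr* the lowest in every group. On normalized counts per kb of the union of annotated exons, *H2ax* had 1580 in empty vector, 2015 in SAM1 and 1926 in SAM2 libraries, followed by *Topbp1* (698, 718 and 799) and *Mdc1* (460, 630 and 660). *Rad17* (244, 228 and 217), *Atm* (178, 153 and 202) and *Trp53bp1* (146, 175 and 164) came next. The lowest in empty vector were *Chek1* (84.2), *Chek2* (71.9), *Clspn* (64.5) and *Atr* (63.4). In the libraries labelled SAM1 *Clspn* reached 178 and stood above *Atm*, and in SAM2 *Chek2* (136) and *Clspn* (135) were level. The order depends on the length used: by the longest transcript *Rad17* had a mean of 603 over all libraries in place of 230.0, *Topbp1* 1603 in place of 738 and *Atr* 162 in place of 62.2, and *Chek1* (126) was then the lowest.

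Genes that work directly with the checkpoint were also read, from a list of 62 partners in 5 roles, of which 61 were listed and *Hus1b* was not. In the pooled comparison 23 were called higher and 14 lower, with a median log2 difference of 0.09, beside 26.8% of all genes higher and 27.0% lower, against which the counts of the roles below are also to be read. Damage sensors and kinase partners had 9 of 18 higher and 2 lower (median 0.15). *Rpa1*, the large subunit of replication protein A, was higher by 0.45 (adjusted p = 2.10e-06), *Etaa1*, a further activator of ATR, by 0.59 (adjusted p = 3.93e-05) and *Rhno1*, a partner of the clamp and TOPBP1, by 0.32 (adjusted p = 0.000589). Fork protection and ubiquitin mediators were divided, with 6 of 18 higher and 6 lower (median 0.02). *Brca1*, a ubiquitin ligase of homologous recombination, was higher by 1.44 (adjusted p = 6.44e-08), *Timeless*, which protects the fork and helps claspin, by 1.03 (adjusted p = 9.94e-08) and *Shld2*, a subunit of the shieldin complex downstream of 53BP1, by 0.59 (adjusted p = 1.19e-05).

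Of the cell cycle and p53 effectors 4 of 10 were higher and 2 lower (median 0.12). *Cdc25c*, the phosphatase that CHK1 and CHK2 restrain, was higher by 1.74 (adjusted p = 1.14e-07), *Trp53*, which encodes p53, by 1.16 (adjusted p = 3.61e-08) and *Pkmyt1*, a kinase that inhibits CDK1, by 0.83 (adjusted p = 4.12e-07). Genes of recovery and turnover had 3 of 8 higher and 2 lower (median −0.04). *Bora* and *Plk1*, which act together when the checkpoint ends, were higher by 1.64 (adjusted p = 6.44e-08) and 1.22 (adjusted p = 2.63e-08), while *Ppp4c*, the catalytic subunit of a phosphatase that acts on phosphorylated H2AX, was lower by −0.60 (adjusted p = 1.19e-05). Among the kinases related to ATM and ATR and their chaperones, 1 of 7 was higher and 2 were lower (median −0.08). *Tti1*, part of the chaperone complex that stabilizes these kinases, was higher by 0.33 (adjusted p = 0.00160), and *Smg1* of nonsense-mediated decay (−0.62, adjusted p = 0.00361) and *Prkdc* of end joining (−0.26, adjusted p = 0.0246) were lower.

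**Figure D5:**
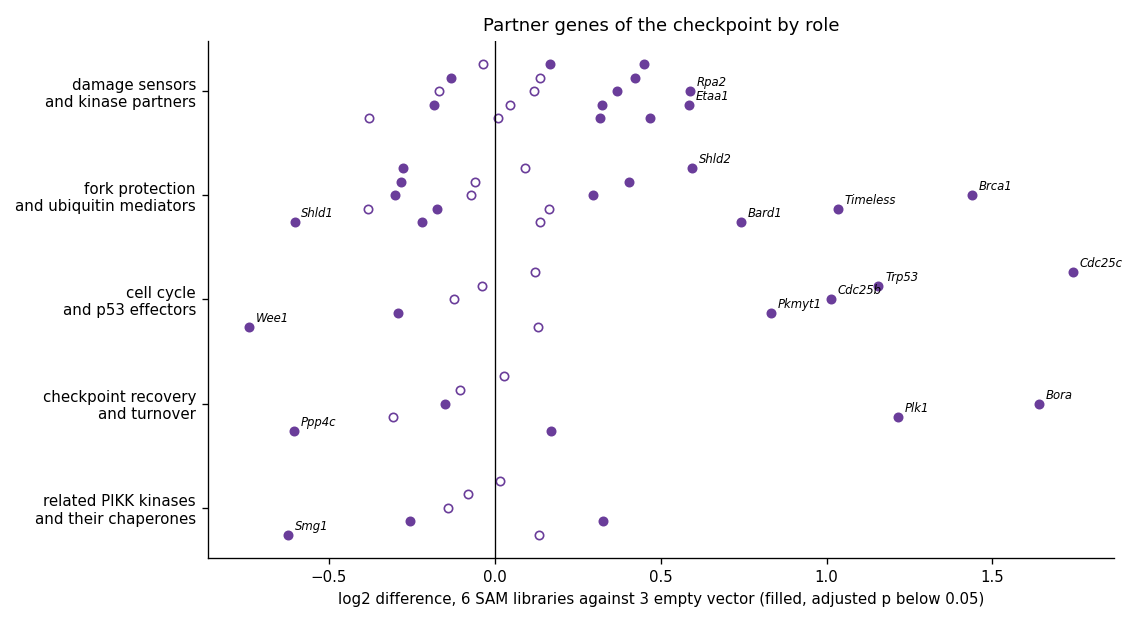
Log2 difference between the 6 libraries labelled Hnrnpk_SAM and the 3 empty vector libraries (horizontal axis) for 61 partner genes of the checkpoint, 1 point per gene, by role (rows). Filled points passed the test, and genes past a log2 difference of 0.55 in either direction are named. The largest differences are those of *Cdc25c* (1.74), *Bora* (1.64) and *Brca1* (1.44).

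The genes most like each checkpoint gene over the 9 libraries, by Pearson r on log2 values, are given as a description, since all points share 3 groups. *Clspn* was most like *Ulbp1* (r = 0.999) and *Srpx2* (0.998), and 1140 genes had an r above 0.95 with it. *Chek1* was most like *Abcg1* (0.998), with 957 such genes, *Chek2* like *Adamts10* (0.996) and *Cnmd* (0.993) with 421, *H2ax* like *Gnat2* (0.991) and *Trmt12* (0.990) with 526, and *Mdc1* like *Bcor* (0.998) and *Zfp106* (0.993) with 452. Fewer genes followed the others. *Atm* was most like *Wdfy3* (0.994) and *Fn1* (0.990) with 43 genes above 0.95, *Atr* like *Npat* (0.989) and *Diaph2* (0.987) with 28, *Topbp1* like *Fhip2a* (0.989) and *Pias2* (0.985) with 136, *Trp53bp1* like *Ccdc6* (0.985) and *Gab3* (0.978) with 45, and *Rad17* like *Vbp1* (0.985) and *Chaserr* (0.976) with 15.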

How the data were processed

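PolyA+ RNA of 9 MEF libraries was sequenced with a strand-directional kit. According to the paper's methods and the submitters' processing notes, the authors checked reads with FastQC (0.11.0), aligned them with TopHat2, Bowtie2 and SAMtools to GRCm39, counted them per gene with HTSeq on Gencode annotation and divided them by DESeq2 size factors. What the authors deposited is a signal, counts scaled by library, for genes above 10 in at least 30% of libraries. It is called the normalized count in the text. Whole reads were recovered from the steps of the values in all 9 libraries (100% of values within 0.01 read of a whole number); in SAM2 1 the step lies close to 1, which makes its recovery less certain. The totals per library leave out genes that are not in the table.

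Values were tested as log2(value + 1), so differences of low genes are understated, with limma (3.58.1, empirical Bayes with a trend, R 4.3.3, two-sided, Benjamini-Hochberg over 15184 genes, threshold 0.05). One fit had 2 groups (6 against 3) and one had 3 groups. The scripts were tested on simulated data. Alternatives were pseudocounts, a filter, quantile and TMM scaling, a replicate block, edgeR (4.0.16) and DESeq2 (1.42.0) on recovered reads, other fits of the groups and leaving out libraries. Named genes are the 10 checkpoint genes, *Hnrnpk*, in each partner list the 3 called genes with the smallest adjusted p, and the 2 genes most like each checkpoint gene. One gene that meets this rule is not reported here. Members and lists were chosen with earlier results of these data known. Lists of partners and markers were written from general knowledge, and cell cycle lists came from Seurat. Protein sequences are not used here.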

Additional observations from a re-analysis of the deposited data

Results flagged for a closer look

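For 5 of the 10 checkpoint genes the libraries labelled SAM1 and SAM2 differed from each other in a direct test (limma, 3-group fit, Benjamini-Hochberg over all genes), so their effects against the shared empty vector libraries differ. The same test called 31.1% of all genes higher in SAM2 and 29.2% lower, so 5 of 10 is not above the share over all genes. Separation without overlap was common too, with SAM2 above SAM1 in 5281 of all 15184 genes and below it in 5076. *Chek2* was higher in SAM2 than in SAM1 by a log2 difference of 0.47 (adjusted p = 4.97e-06), with 3 of 3 SAM2 libraries above all SAM1 libraries. *Clspn* was lower in SAM2 by −0.40 (adjusted p = 5.23e-06), again without overlap. *Atm* was higher in SAM2 by 0.40 (adjusted p = 0.00241) and *Atr* by 0.26 (adjusted p = 0.00703), the SAM2 libraries lying above all SAM1 libraries for both. *Topbp1* was higher in SAM2 by 0.15 (adjusted p = 0.00249), also without overlap. These 5 calls held without any single library.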

How the results depend on the processing

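Calls of *Clspn*, *Chek1*, *Chek2*, *H2ax* and *Mdc1* against empty vector kept their direction and stayed below the threshold in the pooled, SAM1 and SAM2 comparisons under every alternative run, and so did the differences between titles of *Atm*, *Atr*, *Topbp1*, *Clspn* and *Chek2*. Of 760 single-gene differences recomputed, 709 kept direction and side of the threshold, 21 lost and 21 gained a call without a change of sign, and 9 changed sign, all of them values that were not called. Pooled, the number of checkpoint genes called lower went from 1 to 0 under quantile normalization, with the replicate block and without the number 2 libraries, and was 0 to 1 when each library was left out. In SAM1 it went from 2 to 1 under quantile normalization and in a fit of only the 6 libraries compared, was 3 with the replicate block, edgeR or DESeq2, which add *Atm*, and was 0 to 3 with 1 library left out. Between titles it went from 1 to 4 under quantile normalization and to 2 with the replicate block, in the fit of only 6 libraries and without the number 2 libraries, and was 1 to 2 with 1 library left out. The causes were not tested. *Atm* pooled changed sign under quantile normalization (0.0174), and with 1 library left out it ran from −0.12 to 0.0764; *Atr* pooled ran from −0.13 to 0.00807, and *Atr* in SAM2 from −0.00155 to 0.14. Quantile normalization moved no median over all genes by over 0.1.

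Replicate numbers are shared between groups, and nothing in the labels says that a number marks a common source. Deviations of same-numbered libraries correlated by 0.00237 to 0.117 over 9 pairs (mean 0.0531, beside −0.0265 over 18 pairs of different numbers), not all above 0.1, so the numbers were not treated as pairs. SAM1 1 correlated more with SAM2 2 (0.0460) than with SAM2 1 (0.0344). With the replicate block all genes called in the pooled comparison numbered 7343 in place of 8179. *Atm* then passed in SAM1 (−0.21, adjusted p = 0.000242) and SAM2 (0.19, adjusted p = 0.000577), *Rad17* missed pooled (−0.13, adjusted p = 0.0516), and *Trp53bp1* passed between titles (−0.10, adjusted p = 0.0488). The mean of both titles from the 3-group fit called 11323 genes, *Topbp1* among them (0.12, adjusted p = 0.00424). Neighbour medians moved by more than their spread between libraries in 51 of 80 values with 5 Mb or the whole chromosome. Empty 1 to 3 differed most among themselves, with a mean chi-square per gene of recovered reads of 10.7 to 12.9 between 2 libraries. It was 1.53 to 2.28 between SAM2 libraries, 1.45 between SAM1 1 and SAM1 3, and 7.83 and 9.30 between these and SAM1 2. The 3-group fit shares 1 estimate of the spread, so its p-values do not reflect these unequal spreads. Having 3 libraries a group also limits the precision of small differences such as those of *Rad17* and *Trp53bp1*.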

Other observations

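Some partner genes outside the naming rule were singled out after their values had been seen. *Wee1*, the kinase that restrains CDK1 in the nucleus, had 2941 ± 102 normalized counts in empty vector, 2141 ± 61.9 in SAM1 and 1445 ± 42.5 in SAM2 libraries (SD, n = 3 each), and was lower in SAM2 than in SAM1 (log2 difference −0.57, limma adjusted p = 5.01e-08). *Cdkn1a*, which encodes the p53 target p21, had 1567 ± 78.3, 1329 ± 53.8 and 1233 ± 53.2, and was lower in the pooled comparison by −0.29 (adjusted p = 0.00209), while *Trp53* was higher. *Cdc25b*, a further CDC25 phosphatase, had 1486 ± 48.3, 3209 ± 62.8 and 2808 ± 46.8, and was higher by 1.01 (adjusted p = 1.66e-06). *Rpa2*, the middle subunit of replication protein A, had 1195 ± 64.2, 2062 ± 89.7 and 1569 ± 67.8, with SAM2 below SAM1 by −0.39 (adjusted p = 1.70e-05), as for *Clspn*. *Shld1*, another shieldin subunit, was lower by −0.60 (adjusted p = 0.00100) where *Shld2* was higher.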
